A study of Homo sapiens with 4 samples.

Results

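Band 17q25.3 is the terminal light-staining band on the long arm of human chromosome 17, and ELF5 ChIP-seq peaks in T47D cells were numerous, mostly weak and closely packed along it. The peaks described here are those of the deposited ELF5 list whose summit lay on hg19 chromosome 17 between 75300 and 81195 kb. Summits in a stretch of 95 kb starting at 80000 kb were left out and not analysed here. This gave 1777 peaks of 115384 in the list, or 1.54%, over 5.8 Mb. The band was chosen because its peak density was high, so the densities below are descriptions and were not tested. Every other value comes from the same list, which the choice of the band had drawn on, and was not tested either.

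T47D is an established human breast epithelial line of the luminal A type, grown here in RPMI with serum and insulin and given no treatment. The series held 3 ELF5 ChIP replicates, made with the antibody sc-376737, and 1 input sample of the same line. All ChIP samples share the line, medium and antibody, and no line lacking ELF5 was among the samples. The data were 1 peak list with no value per replicate, so no peak has a replicate spread and no group was compared with another.

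ELF5 is a transcription factor of the ETS family, whose members bind DNA through a winged helix domain at a short purine-rich core. It is known for directing alveolar differentiation of luminal progenitors in the mammary gland during pregnancy, and in luminal breast cancer cells for opposing estrogen-driven expression. ETS sites are found at many promoters of widely expressed genes, and several ETS proteins can occupy the same sites. In ChIP-seq a peak marks DNA enriched with the factor, by direct contact or through a partner, and does not show that a nearby gene is regulated.

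The band is gene-dense. It carries, among others, SEPTIN9 (a cytoskeletal septin), TK1 (cytosolic thymidine kinase), BIRC5 (survivin, an inhibitor of apoptosis active in mitosis), SOCS3 (a feedback inhibitor of JAK and STAT signalling) and TIMP2 (an inhibitor of matrix metalloproteinases). Further along come the Polycomb genes CBX2 and CBX8, RPTOR (a subunit of mTOR complex 1), ACTG1 (cytoplasmic gamma actin), P4HB (protein disulfide isomerase), SIRT7 (a deacylase), CSNK1D (casein kinase 1 delta) and METRNL (a secreted protein). In the RefSeq table of assembly GRCh38.p14 these 13 genes stand in this order, 106 protein-coding genes run from SEPTIN9 to METRNL, and METRNL is the last protein-coding gene of the chromosome. These genes were picked as landmarks from general knowledge. Which ELF5 peaks lie at which of them was not analysed here, because that assembly differs from hg19.

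The fold of a peak is the authors' enrichment of the ChIP over the local background, and a strong peak is one among the highest 10% of folds in the list, a fold of 11.99 or more. The 17q25.3 peaks had a median fold of 3.22, with an interquartile range from 2.75 to 4.01, a lowest value of 1.92 and a highest of 45.4. Folds under 3 made up 39.6% of them, folds from 3 to under 5 another 44.6%, and folds of 20 or more 2.14%, or 38 peaks. In the list the median fold was 3.66, so most of its peaks were also under a fold of 5. Folds under 3 numbered 29158 of 115384 there, a smaller share than in the band. Folds from 3 to under 5 made up 46.3% of the list, close to the band, and folds of 20 or more 4.46%. Strong peaks numbered 98, or 5.51% (exact binomial 95% interval 4.50 to 6.68), beside 10.0% over the list. The 3 strong peaks nearest the limit had folds of 12.03, 12.05 and 12.19, and the 3 highest below it 11.87, 11.66 and 11.64. The authors' q was under 0.05 at 1412 peaks of the band, or 79.5%, beside 87.5% in the list. At the other 365, which is 20.5% (18.7 to 22.5), it was 0.05 or more, so weakly supported sites were a larger part of this band than of the list.

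**Figure D1:**
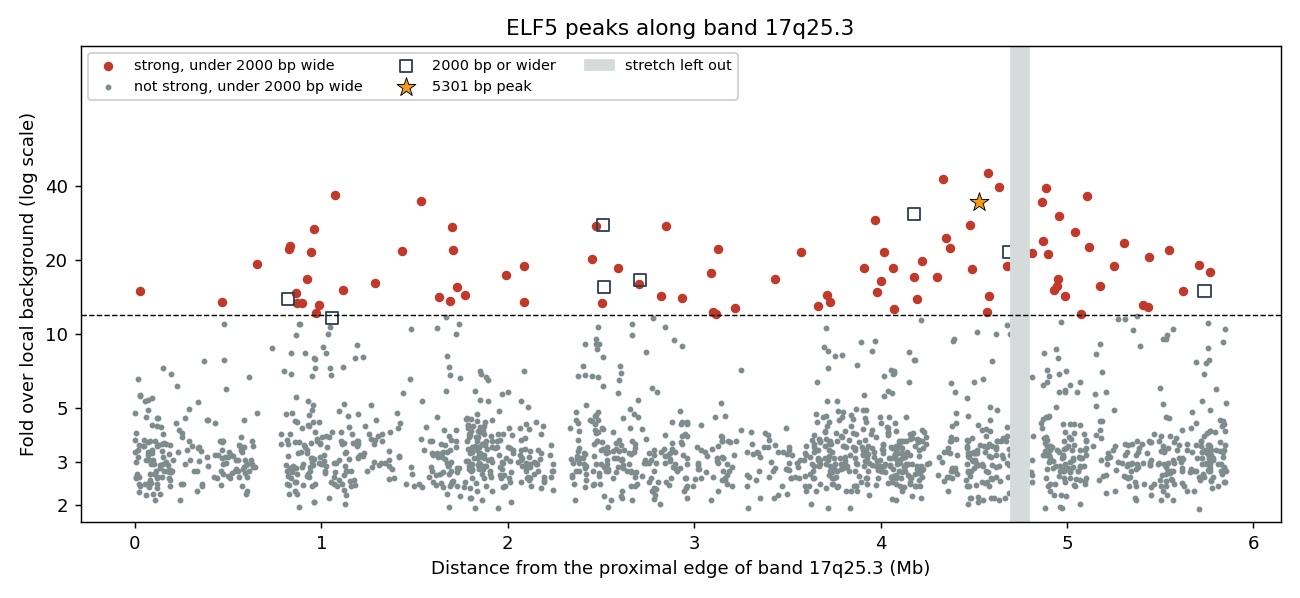
Each of the 1777 peaks of 17q25.3 is a point at its distance from the proximal edge of the band (x, Mb) and its fold over local background (y, log scale). Red points above the dashed line at 11.99 are strong peaks under 2000 bp, grey points are the others, squares are peaks of 2000 bp or more, the star is the 5301 bp peak and the grey bar is the stretch left out. Most points lie between folds of 2 and 5, and of the 10 highest 8 stand in the distal part, from 4 to 5.2 Mb, and 2 between 1 and 2 Mb.

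The depth behind a typical site was low. The fragment pileup recovered from the authors' fold and p had a median of 16 at these peaks, and the exact Poisson 95% interval of that count runs from 9.15 to 26.0. This depth is no trait of the band, since the median pileup was also 16 over the list and 17 on the rest of chromosome 17. At the median background of 3.92 fragments in the band, a pileup of 16 gives a fold of 3.17 with an interval from 1.90 to 5.01. The folds of 1496 of the 1777 peaks, 84.2%, lay inside that interval. Typical peaks of the band could therefore not be ordered by fold. The intervals reflect counting error alone, with the background held fixed. Strong peaks of the band had a median fold of 17.8 from a median pileup of 113.

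Width and fold went together. The 132 peaks at the smallest width in the list, 135 bp, ranged in fold from 2.02 to 3.79 and included no strong one. They made up 7.43% of the band (6.25 to 8.75), and peaks of that width made up 9.27% of the list. Of 688 peaks over 200 and up to 400 bp wide 9 were strong, of 251 over 400 and up to 1000 bp 42 were, and of 66 over 1000 and under 2000 bp 39 were. The median width was 221 bp for all peaks of the band, 941.5 bp for the strong ones and 211 bp for the others. In the list, strong peaks had a median width of 818 bp. Across the 1777 peaks the Spearman rank correlation of fold with width was 0.53, where both come from the same pileup profile, and across the list it was 0.60. By width, the observed strong share was lower in the band than in the list among peaks over 200 and under 2000 bp. Among those over 200 and up to 400 bp it was 1.31% in 17q25.3 and 3.49% in the list. Among peaks over 400 and up to 1000 bp it was 16.7% in 17q25.3 and 33.8% in the list, and among those over 1000 and under 2000 bp it was 59.1% in 17q25.3 and 68.0% in the list. Among peaks of 2000 bp or more it was 88.9%, or 8 of 9, in 17q25.3 and 82.8% of 517 in the list. With 9 such peaks in the band, these 2 shares cannot be told apart. The band share over 1000 and under 2000 bp also rests on few peaks, 66. No intervals were computed for the strong shares by width, and their differences from the list were not tested.

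The 10 peaks with the highest folds ranged from 30.8 to 45.4, over backgrounds of 3.51 to 5.40 fragments. The highest covered 79875445 to 79876257 and had a fold of 45.4, for which counting error gives a 95% interval of 39.7 to 51.7, from a pileup of 224. Next came a peak at 79632499 to 79634144 with a fold of 43.0 (37.6 to 49.0), one at 79934912 to 79936096 with 39.7 (34.8 to 45.1) and one at 80188571 to 80190280 with 39.3 from a pileup of 217. Their order cannot be told from these data, since the intervals of the first 3 overlap and the fold of the fourth lies inside that of the third. Peaks at 76374309 to 76375102 and 80408269 to 80408949 had folds of 37.0 (32.5 to 42.1) and 36.4 (32.1 to 41.1). The remaining 4 had their summits at 76837131, 80163949, 79829253 and 79481688, with folds of 34.9, 34.5, 34.5 and 30.8. Of these 10, 8 were also among the 10 of the band with the smallest p, where peaks at 79268317 to 79269659 and 78149228 to 78149724 took the other places, with folds of 29.3 and 27.7.

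Ranks over the whole list depended on the measure. The band held 1.54% of the peaks in the list. No peak of the band was among the 100 highest folds, while 4 were among the 100 smallest p and 1 among the 100 largest pileups. These counts are small. The peak at 80408269 to 80408949 ranked 715 by fold, 59 by p and 42 by pileup, with 255 fragments over a background of 5.40. The 10 highest folds of the list began at 64.3 and lay over backgrounds from 1.81 to 3 fragments, below those of the 10 highest in the band. No peak of the band lay at the lowest background of the list, 1.81 fragments, where 8.55% of all peaks did. Among the 1000 highest ranks there were 9 peaks of the band by fold, 14 by p and 15 by pileup, beside its share of 1.54% of all peaks. Fold is a ratio to the background, and the part of the background in these ranks was not tested.

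The marked broad peak covered 79824906 to 79830206, a width of 5301 bp, and was the second widest of the list after one of 5845 bp. These 2 were the only peaks of 5000 bp or more, and 66 peaks of the list reached 3000 bp. The next widest in 17q25.3 measured 3462 bp. Its fold was 34.5 (29.6 to 39.9) from a pileup of 176 over a background of 3.67 fragments. By fold it ranked 941 in the list and 48 among the 517 peaks of at least 2000 bp, whose median fold was 19.1 and median pileup 103. The summit was 4348 bp from the proximal end of the peak and 953 bp before its distal end. That is 18% of the width from the nearer end, against a median of 29.8% over the 517 broad peaks. How the signal runs between the ends of the peak was not analysed here, since the list gives only the summit.

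**Figure D2:**
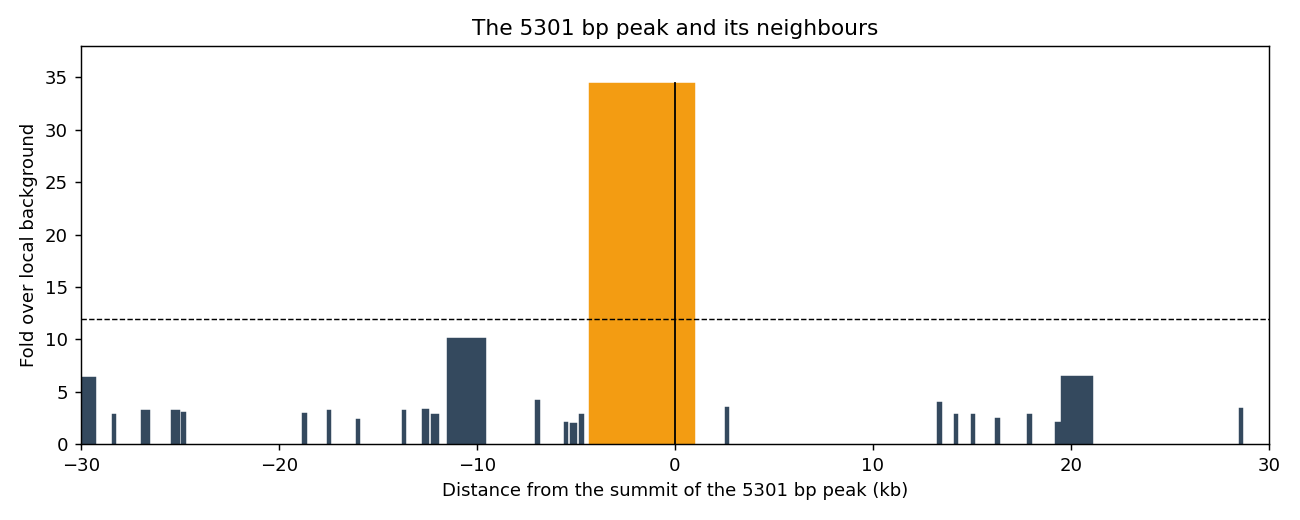
Boxes are peaks within 30 kb of the summit of the 5301 bp peak, drawn to scale by start and end (x, kb from that summit) with the fold at their own summit as height (y). The orange box is the 5301 bp peak at 34.5, with its summit as a black line near the distal end, and the dashed line is the strong limit of 11.99. All dark boxes lie below that line, the tallest at 10.2.

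Around the 5301 bp peak stood a row of weak sites, with values near those of the band as a whole. Within 30 kb of its summit lay 25 other peaks, 16 on the proximal and 9 on the distal side, with a median fold of 3.05 and a median width of 194 bp. None of them was strong, and 5 had a q of 0.05 or more. Over the whole band the median fold was 3.22 and the median width 221 bp. There 5.51% of peaks were strong and 20.5% had a q of 0.05 or more. The nearest on the proximal side, at 79824439 to 79824614, ended 291 bp before the 5301 bp peak and had a fold of 2.92 (1.82 to 4.47). On the distal side the nearest was at 79831802 to 79831939, 1595 bp beyond its end, with a fold of 3.51 (2.10 to 5.56). Of the 25, 2 exceeded 1000 bp in width and are named after their values were seen. One, at 79817734 to 79819649, had a fold of 10.2 with its summit 146 bp from the proximal end. The other, at 79848765 to 79850299, had a fold of 6.51.

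Including the 5301 bp peak, 9 peaks of the band were at least 2000 bp wide, which is 0.506% (0.232 to 0.959) beside 0.448% in the list, and 8 of them were strong. They lay over backgrounds of 3.62 to 7 fragments. The one that was not strong, at 76355114 to 76357234, had a fold of 11.6 (8.89 to 15), just below the limit. A pair stood close together. The peak at 77812341 to 77815802, 3462 bp wide, had a fold of 28.0 (23.9 to 32.5), and the one at 77817009 to 77819107, 2099 bp wide, had 15.6 (12.6 to 19.1). The gap between them was 1206 bp and held 2 further peaks. The remaining broad peaks covered 79480725 to 79482795, where the fold was 30.8, 79988046 to 79990099, where it was 21.6, 78009047 to 78011178, where it was 16.6, 81036980 to 81039083, where it was 15, and 76123302 to 76125376, where it was 13.9. In the last of these the summit lay 171 bp from the proximal end.

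The peaks were unevenly spread along the band. Over 57 full windows of 100 kb the number of peaks ran from 4 to 64, with a median of 30 and an interquartile range from 18 to 40. The richest window, 77100 to 77200 kb, held 64 peaks and no strong one. It was followed by the window from 79300 kb with 60 peaks, of which 4 were strong, the one from 79000 kb with 57, of which 2 were strong, and the one from 80200 kb with 56, of which 5 were strong. The poorest windows began at 76000 kb, with 4 peaks, and at 77500 kb, with 7. The longest distance between neighbouring summits was 87605 bp, from 77545314 to 77632919.

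Strong peaks followed the total only loosely, in counts of 6 or fewer per window, which vary widely by counting alone. The window from 76100 kb held the most, 6 of 45 peaks, and its neighbour from 76200 kb held 5 of 47. Strong peaks were missing from 13 of the 57 windows and single in 20, while 16 windows with 3 or more held 62 of the 98. The Spearman rank correlation between the number of peaks and of strong peaks was 0.49 over the 57 windows, which share 1 list and count strong peaks in both numbers. The median fold per window ran from 2.76 to 5.47, the highest in the window of 4 peaks.

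**Figure D3:**
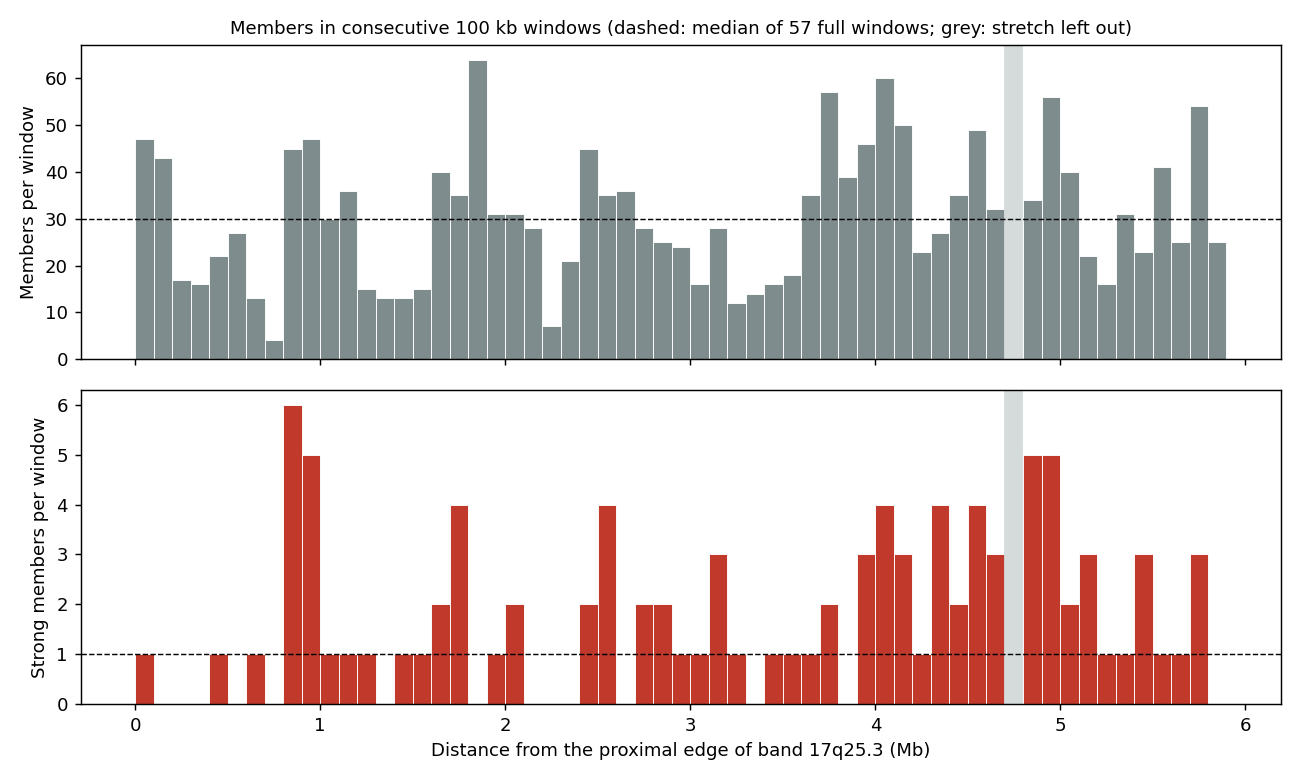
Bars give the number of peaks (upper panel) and of strong peaks (lower panel) in consecutive 100 kb windows from the proximal edge of 17q25.3 (x, Mb), with dashed lines at the medians of the 57 full windows and a grey bar at the stretch left out. The tallest upper bar, 64 peaks, has no bar below it, and the tallest lower bar, 6 strong peaks near 0.9 Mb, stands over 45 peaks.

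By 500 kb segments, the number of strong peaks ran from 2 to 17. The segment from 79800 to 80300 kb, of which 405 kb were counted, held 17 strong peaks of 171, or 42.0 per Mb. The segment before it held 14 of 195, or 7.18%, and the one after it 10 of 132, or 7.58%. The segment from 75800 kb, in the proximal part, held 12 of 136, or 8.82%, a larger share than either of these neighbours. The last segment, from 80800 kb, held 5 of 145, or 3.45%. Together the segment from 79800 kb and its 2 neighbours made up 24.2% of the length, 28.0% of the peaks and 41.8% of the strong peaks, and 8 of the 10 highest folds. Their strong share was 8.23%, or 29.2 per Mb, against 4.46%, or 13.0 per Mb, in the remaining segments. The median background was 4 fragments in the 3 segments and 3.91 in the others, and the median fold 3.25 and 3.21. These 3 segments were singled out after their values were seen. The first segment, from 75300 kb, had 145 peaks and only 2 strong ones, the higher with a fold of 15 (12.4 to 17.9) at 75327481 to 75327964. The other segments had highest folds of 26.9 from 75800 kb, 37.0 from 76300 kb, 34.9 from 76800 kb, 27.5 from 77300 kb, 28.0 from 77800 kb, 22.2 from 78300 kb, 29.3 from 78800 kb and 22.1 from 80800 kb.

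At the proximal edge the first peak inside, at 75301076 to 75301432, had a fold of 3.69 (2.35 to 5.54), and the last outside, at 75298975 to 75299111, had 3.11 (1.86 to 4.93). Within 50 kb outside the edge, in 17q25.2, stood 3 strong peaks with summits at 75277516, 75282768 and 75285051 and folds of 20.8, 18.7 and 27.9, looked up after the values at the edge had been seen. The last peak of the chromosome, at 81153238 to 81153392, lay 41.9 kb before its end and had a fold of 5.24 (3.14 to 8.29) over 1.97 fragments, the lowest background in the band. The last peak before the stretch left out, at 79994739 to 79995851, had a fold of 10.0 (7.77 to 12.7), and the first after it, at 80109388 to 80109550, had 2.72 (1.52 to 4.59).

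Neighbouring summits were close together, with a median distance of 1601 bp (interquartile range 791 to 3728 bp) over 1775 distances. Distances under 400 bp numbered 152, or 8.56%, and the shortest was 128 bp, so some neighbours may belong to 1 enriched stretch. On the rest of chromosome 17 such distances made up 5.66%. When summits within 12500 bp were joined, the band fell into 68 regions. Only 6 held a single peak, while 35 held 10 or more and took in 1625 peaks, 91.4%. The largest ran from 78991974 to 79559213, 567 kb, with 277 peaks, of which 13 were strong. Next were 76098484 to 76508104 with 160 peaks, 80159249 to 80417447 with 130 and 79760063 to 79995851 with 109. Their strong peaks numbered 13, 13 and 9. These 4 regions held 38% of the peaks and 49.0% of the strong peaks. The last of them holds the 5301 bp peak and 2 of the 3 highest folds, and it ends where the stretch left out begins. The next region by number, from 77066647 to 77216665, was packed more densely, with 94 peaks in 150 kb, and had 1 strong peak of fold 14.4. No strong peak fell in 34 regions, which together held 276 peaks.

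Strong peaks were 5.51% of all peaks in the band. Of the distances between neighbouring summits, 5 joined 2 strong peaks, the shortest at 1876 bp. The median distance from one strong summit to the next strong one was 31352.5 bp, and the longest 438334 bp. Of 1679 other peaks, 324, or 19.3%, lay within 5 kb of a strong summit. Their median fold was 3.27 (interquartile range 2.75 to 4.12), against 3.14 (2.74 to 3.68) for the 1355 farther away, and their median background 4 against 3.78 fragments. The strong share by number of other peaks within 5 kb was 6.81% of 411 peaks with 1 or 2, 6.37% of 754 with 3 to 5 and 3.30% of 485 with 6 to 10. The intervals of the first and last of these shares ran from 4.57 to 9.70 and from 1.90 to 5.30. In the list, the same shares were 10.3%, 7.74% and 6.39%. Of the 101 peaks of the band with no other within 5 kb, 5 were strong (4.95%, interval 1.63 to 11.2), against 12.9% of such peaks in the list.

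Set beside 3 other dense terminal bands, 17q25.3 was similar in most measures. Its 306 peaks per Mb compare with 389 in 7p22.3, 391 in 9q34.3 and 287 in 20q13.33. The strong share of 5.51% (4.50 to 6.68) compares with 3.77% (2.72 to 5.08) in 7p22.3, 4.83% (3.80 to 6.05) in 9q34.3 and 3.84% (2.87 to 5.02) in 20q13.33. It was the highest among these bands, and the shares of 7p22.3 and 20q13.33 lay below its interval. The intervals themselves overlap with that of 17q25.3 in each case, which does not show that the shares are equal. Strong peaks came to 16.9 per Mb in 17q25.3, 14.6 in 7p22.3, 18.9 in 9q34.3 and 11 in 20q13.33. The median distance between summits was longer in 17q25.3, 1601 bp, than in 7p22.3 with 1327 bp, 9q34.3 with 1266 bp and 20q13.33 with 1317.5 bp. Distances under 400 bp made up 8.56% in 17q25.3, 9.94% in 7p22.3, 9.67% in 9q34.3 and 8.97% in 20q13.33. The share of peaks with a q of 0.05 or more was 20.5% in 17q25.3 and 22%, 20.3% and 21.9% in 7p22.3, 9q34.3 and 20q13.33. The median fold was 3.22 in 17q25.3 and 3.13, 3.15 and 3.17 in 7p22.3, 9q34.3 and 20q13.33. Median backgrounds were 3.92 fragments in 17q25.3 and 3.59, 3.78 and 3.64 in the same bands. The differences between the bands were not tested, and no further terminal bands of other chromosomes were compared.

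**Figure D4:**
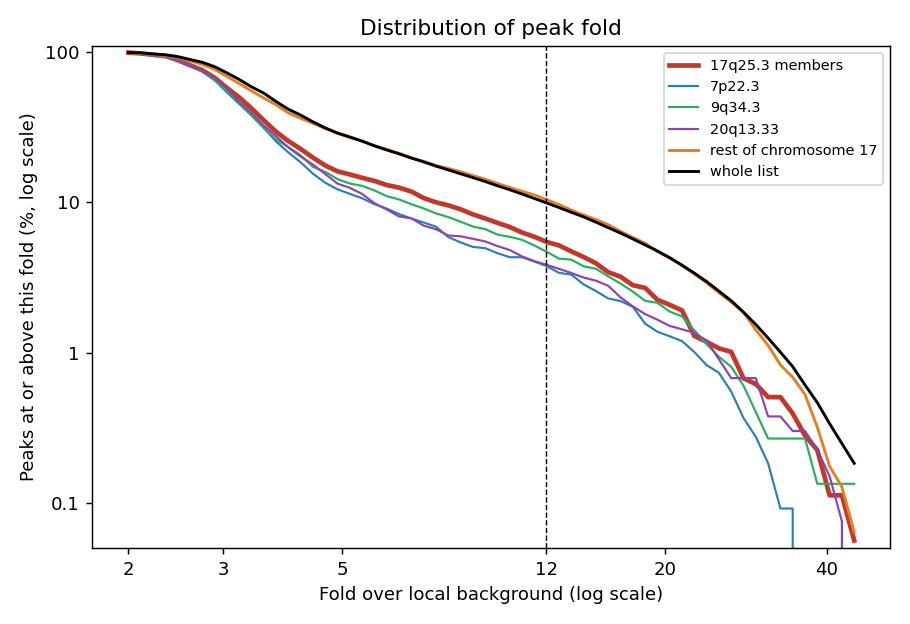
Each line gives the percentage of peaks (y, log scale) at or above a fold (x, log scale), for 17q25.3 in red, the bands 7p22.3, 9q34.3 and 20q13.33 in blue, green and violet, the rest of chromosome 17 in orange and the whole list in black, with the strong limit dashed. At that limit 17q25.3 stands at 5.51%, 7p22.3, 9q34.3 and 20q13.33 stand from 3.77% to 4.83%, and the rest of the chromosome and the list stand at 10.5% and 10.0%.

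Within chromosome 17 the band combined the most peaks per Mb with the smallest observed share of strong ones. It held 306 peaks per Mb, against 83.1 on the rest of the chromosome, and was first of 24 bands by density. The neighbouring 17q25.1 had 218 per Mb and 17q25.2 had 178. By strong peaks per Mb it ranked 3 of 24, with 16.9, behind 17q21.1 with 26.7 and 17q21.2 with 22, and the rest of the chromosome had 8.71. By the observed share of strong peaks 17q25.3 was last of 23 bands with at least 20 peaks. The next were 17q24.3 with 6.48% (7 of 108), 17q25.2 with 6.74% (6 of 89) and 17q25.1 with 7.06% (60 of 850). The share of 17q24.3 lies inside the interval of 17q25.3, 4.50 to 6.68. With so few strong peaks in 17q24.3 and 17q25.2, the order of the lowest shares cannot be told. The upper quartile of fold was 4.01 in 17q25.3 and 5.49 on the rest of the chromosome, whereas the lower quartiles were 2.75 and 2.93.

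The background at the peaks was alike in the band and the rest of the chromosome, with a median of 3.92 fragments in both, against 3.11 in the list. Its spread was narrower in the band than on the rest of the chromosome or in the list. The 5th percentile was 2.93 in 17q25.3, 1.84 on the rest of the chromosome and 1.81 in the list. The interquartile range in the band ran from 3.32 to 4.46. In 7p22.3, 9q34.3 and 20q13.33 the 5th percentiles were 2.75, 2.89 and 2.73. Their interquartile ranges ran from 3.11 to 4.13, 3.24 to 4.46 and 3.13 to 4.05. A narrow spread of background is therefore no trait of 17q25.3 alone. On the short arm, 17p13.3 to 17p12 had median backgrounds of 2 to 2.16 fragments, and the other bands of the long arm outside the centromere 3.38 to 5. The highest background in 17q25.3, 10.0 fragments, was at 76130049 to 76130671, under a peak with a fold of 2.82. By 100 kb windows the median background ran from 3.08 to 5 fragments, the highest in the window from 76100 kb that also held the most strong peaks.

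The peaks were also divided into 4 classes of background, which were not matched within a class. Peaks over 3 to under 4 fragments, 49.0% of the band, were strong in 2.99% of 870 (1.96 to 4.35) in 17q25.3, in 6.78% of 2036 (5.72 to 7.96) on the rest of the chromosome and in 8.49% of the list. Under 3 fragments the shares were 1.99% of 151 (0.412 to 5.70) in 17q25.3 and 10.3% of 1440 (8.76 to 12) on the rest of the chromosome. From 4 to under 5 fragments they were 9.40% (6.77 to 12.6) in 17q25.3 and 11.5%, or 163 of 1419, on the rest, which lies inside the interval of the band. From 5 fragments upward they were 8.80% (6.01 to 12.3) in 17q25.3 and 15.2%, or 207 of 1365, on the rest. In the class under 3 fragments the median fold was 3.43 in 17q25.3 and 3.91 on the rest, at a median pileup of 13 in both. Backgrounds within a class may differ between the sets and were not compared, and the class from 5 fragments upward has no upper limit. The part of the background in the strong share was not tested. Neighbouring peaks are not independent, so the binomial intervals may be too narrow, and the differences were not tested.

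**Figure D5:**
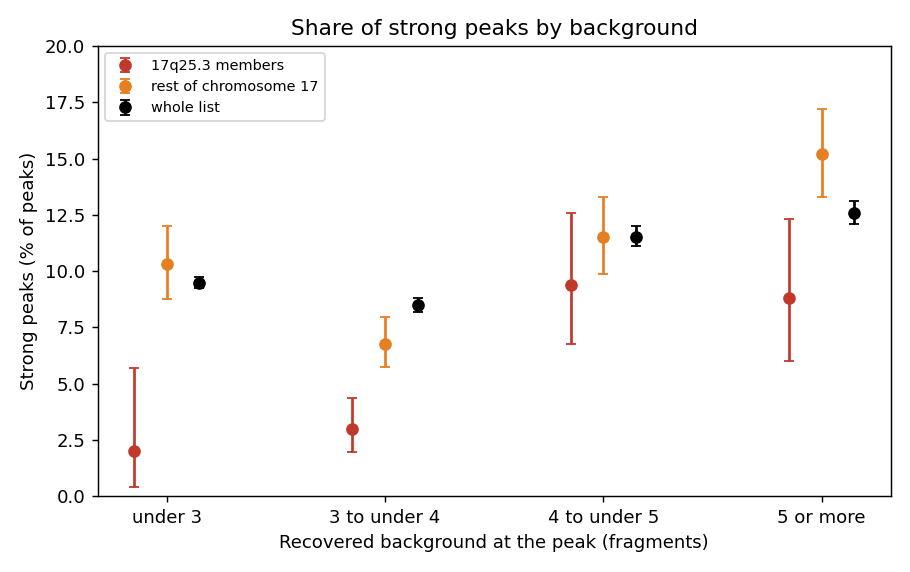
Points give the percentage of peaks that were strong (y) in 4 classes of recovered background (x, fragments), for 17q25.3 in red, the rest of chromosome 17 in orange and the whole list in black, and bars are exact binomial 95% intervals. The red points run from 1.99% to 9.40% and lie below the orange ones in each class, and red and orange bars overlap only from 4 to under 5 fragments.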

How the data were processed

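ELF5 ChIP-seq was run on 3 replicates and 1 input of T47D, and the authors deposited 1 peak list. Its build is hg19, per the file headers. IDR and 1-3 appear in the track name, which leaves unclear whether replicate 2 contributed. The aligner, the caller, its threshold and the pooling of replicates are details not given in the sources used here. Antibodies to other factors stand in the protocol text, while the ELF5 antibody is given per sample. Per the labels, nothing says that the replicates came from separate cultures.

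The authors' deposited score equals the whole part of 10 times −log10 p in all 115384 rows. The deposited −log10 p and −log10 q were used as given, and the deposited signal value was read as a fold, a ratio of ChIP to local background. Score, fold, p and q are the authors' values for each peak. From fold and p, pileup and background were recovered by taking pileups as whole numbers times 0.90982, adding a pseudocount of 1 and reading p as a Poisson tail, within 0.001 of −log10 p at all 115384 peaks. At 95 peaks a second pileup also came within that tolerance. On 3917 simulated peaks with another factor 100% of pileups were recovered. These quantities are inferred, and the reads per sample are unknown here.

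Band limits came from circlize 0.4.16 in R 4.3.3. Distances and joined regions (summits within 12.5 kb) were broken at the stretch left out, which ends at 80095 kb. Peaks named were the marked one and its neighbours, the 10 highest by fold and by p, those of at least 2000 bp, the highest of each 500 kb, and those at the edges or with extreme fold or background. The peaks, lists and alternatives were chosen with earlier results of these data known. Sequence, motifs and genes at peaks were not analysed, for want of an hg19 genome or annotation here. Scripts ran under Python 3.11.15 with numba 0.67.0, scipy 1.17.1, numpy 2.4.6, matplotlib 3.10.9 and pandas 2.3.3.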

Additional observations from a re-analysis of the deposited data

How the results depend on the processing

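Of 29 alternative values, 13 kept within their limits and 16 moved. A count had to stay within 1.5 times, a share or median within its 95% interval. With −log10 q of 5 or more, the band held 463 peaks, with a median width of 454 bp and a median fold of 6.13. The share and medians of the list at that cut are not given here. The upper quartile of −log10 q was 5.27 over all peaks of the band and 9.46 over the list. Among peaks with q under 0.05 the median fold was 3.46, the median width 240 bp and the median distance 2016 bp, which was 1797 bp with summits within 400 bp joined. Strong peaks numbered 44 (2.48%) for the highest 5% of folds and 216 (12.2%) for the highest 20%. Windows without a strong peak made up 48.7% at 50 kb and 7.14% at 200 kb, against 22.8% at 100 kb. Joining within 5 kb gave 321 regions, the largest of 53 peaks, and within 25 kb 16 regions. These shifts follow from fewer or more peaks, smaller or larger windows and shorter or longer joins. Merging overlapping rows changed nothing, as none overlap. No paired analysis was possible because replicates have no values of their own here, and none could be left out. The pileup behind a typical peak, at a median of 16 in the band and in the list, is too low to order such peaks.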
